A study of Mus musculus with 2 samples.

Results

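The 10 genes described here are the insulin and beta-cell identity genes Ins1, Ins2, Iapp, Nkx6-1, Pdx1, Mafa, G6pc2, Slc2a2, Mnx1 and Npy. They were chosen by name, without use of measured values, and all 10 were among the 22023 genes counted in both libraries. The counts are unique molecular identifiers (UMIs), each standing for a captured mRNA molecule, read in single cells of mouse embryonic pancreas at E15.5. The Mettl3pKO library came from embryos in which Mettl3, the catalytic subunit of the main mRNA N6-methyladenosine writer, was deleted in Pdx1+ pancreatic progenitors, and the WT library from wild-type embryos of the same stage. The line that drove the deletion, the deleted part of Mettl3 and the number of pooled embryos are not given in the sources used here. Each genotype had 1 library, so no difference below has a replicate check and no test was made. Intervals are 95% intervals that cover counting error only.

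Beta cells are the islet cells that make insulin, store it in granules with islet amyloid polypeptide and release it when glucose rises. In the mouse pancreas they descend from Pdx1+ progenitors through bipotent trunk cells, Neurog3+ endocrine progenitors and Fev+ precursors. Nkx6-1, Pdx1 and Mnx1 are homeodomain transcription factors of the beta lineage, and Mafa is a leucine-zipper factor that binds the insulin promoter and rises as beta cells form. Slc2a2 encodes the glucose transporter GLUT2 and G6pc2 an islet glucose-6-phosphatase. Npy encodes neuropeptide Y, a peptide that mouse beta cells make before they mature.

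Mice carry a pair of insulin genes on different chromosomes. In GENCODE vM21 on mm10, Ins1 is at chr19:52264297-52265476 on the plus strand. Ins2 is annotated at chr7:142678656-142743381 on the minus strand, a span set by long transcripts, and its short transcript covers chr7:142678659-142679726. The other members are Iapp at chr6:142298423-142303961 (plus), Nkx6-1 at chr5:101658139-101664996 (minus), Pdx1 at chr5:147269959-147275848 (plus), Mafa at chr15:75745490-75748228 (minus), G6pc2 at chr2:69211073-69227841 (plus), Slc2a2 at chr3:28697903-28731359 (plus), Mnx1 at chr5:29473034-29478470 (minus) and Npy at chr6:49822710-49829507 (plus). All are protein-coding.

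The coding sequences of the insulin pair are shown because their likeness bears on every Ins1 and Ins2 value. They are 327 bases long in Ins1 and 333 in Ins2. Aligned without their 6 gap positions, 302 of 327 bases are the same (92.4%), and the longest shared run is 56 bases. Their last 90 coding bases, 5′ to 3′ up to the stop codon, differ at the 4 positions in capitals.
Ins1: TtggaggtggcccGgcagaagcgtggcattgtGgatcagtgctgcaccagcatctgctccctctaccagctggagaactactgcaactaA
Ins2: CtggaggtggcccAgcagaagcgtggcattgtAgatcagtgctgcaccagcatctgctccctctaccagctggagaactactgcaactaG
A short read inside such a run cannot be placed on a single copy. The sources used here do not say how the authors' counting divided such reads, so the split between Ins1 and Ins2 is uncertain, and their sum, called insulin below, is given beside them.

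The 250 bases upstream of the start of Ins1 and Iapp are shown because both are hormone genes whose upstream windows hold the letters of islet factor motifs. RefSeq promoters on GRCm38.p6 matched 8 of the 10 members with 9 entries, and Ins2 and Mafa had no entry. Capitals mark TAAT, the core of homeodomain sites such as those of Pdx1 and Nkx6-1, and CATCTG, an E-box, each on either strand, so that a complement appears as ATTA or CAGATG. The Ins1 window is chr19:52264047-52264296 and the Iapp window chr6:142298175-142298424, both on the plus strand.
Ins1: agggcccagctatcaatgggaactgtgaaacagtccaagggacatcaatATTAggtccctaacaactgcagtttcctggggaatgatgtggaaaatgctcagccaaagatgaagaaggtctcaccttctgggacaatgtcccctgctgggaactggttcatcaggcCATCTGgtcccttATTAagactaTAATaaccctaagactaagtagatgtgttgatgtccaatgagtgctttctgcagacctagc
Iapp: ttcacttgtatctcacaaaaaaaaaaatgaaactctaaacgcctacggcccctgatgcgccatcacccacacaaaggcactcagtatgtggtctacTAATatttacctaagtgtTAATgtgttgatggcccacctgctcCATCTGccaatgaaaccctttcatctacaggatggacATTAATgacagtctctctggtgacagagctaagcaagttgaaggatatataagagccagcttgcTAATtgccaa
The Ins1 window held 3 TAAT and 1 CATCTG matches, and the Iapp window 5 TAAT, of which a pair overlap as ATTAAT, and 1 CATCTG. Of the 9 member entries, 6 held TAAT and 3 held both motifs, namely Ins1, Iapp and the downstream start of G6pc2. Across 32851 RefSeq promoters of the same length, 54.9% held TAAT, 14.4% CATCTG and 8.91% both. These matches describe letters only.

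The Mettl3pKO library held 3624 complete cells with a median of 16481 UMIs, and the WT library 6384 cells with a median of 10823. The cells run from deep to shallow down each table and both tables end inside a line, where the depth was still near 12025.5 UMIs in Mettl3pKO and 6852.5 in WT (medians of the last 100 lines). Each table may thus lack shallow cells, more so for Mettl3pKO. Every share below is of the cells held, and the beta-like results are also given for cells of 13000 UMIs or more, a depth both tables cover. After filters 3475 Mettl3pKO and 6066 WT cells remained, and 33 cell indices occurred in both libraries. Mettl3 itself stood lower in Mettl3pKO in each epithelial class compared, with a ratio of summed levels per 1000000 UMIs (CPM) of 0.782 (0.659 to 0.929) in acinar-like, 0.661 (0.494 to 0.872) in duct and trunk-like, 0.654 (0.373 to 1.09) in alpha-like and 0.711 (0.434 to 1.13) in beta-like cells. In mesenchyme-like cells it was 0.791 (0.573 to 1.08), so the epithelial ratios did not stand apart from it within counting error. A tag outside the deleted part would still be counted.

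Cells were clustered without the 10 members, and clusters were named from markers that exclude them. The beta-like class held 156 of 2775 epithelial cells in Mettl3pKO (5.62%, 4.79 to 6.54) and 400 of 4256 in WT (9.40%, 8.54 to 10.3). Acinar-like cells made up 76.6% of the epithelial cells in Mettl3pKO and 43.8% in WT. Every share of epithelial cells therefore depends on how many acinar-like cells each library held. Its larger cluster had all 11 beta markers detected, and its leading genes included Ins2, Ins1, Nnat, Mafa, Iapp, Npy and G6pc2, so the label held. The smaller cluster, 19 Mettl3pKO and 13 WT cells, also had all 11. Its median doublet score was 0.0559, against 0.00814 in the larger, and its median depths were 20400 UMIs in Mettl3pKO and 24154 in WT. The steps before the beta cell could not be compared between genotypes, since endocrine progenitor-like cells numbered 10 in Mettl3pKO and 230 in WT, Fev precursor-like cells 3 and 100, and delta-like cells 1 and 96. Comparisons between genotypes were therefore made in beta-like, alpha-like (121 and 369 cells), duct and trunk-like (357 and 1198) and acinar-like cells (2127 and 1863).

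Beta-like cells carried more insulin, Iapp, G6pc2 and Npy mRNA per UMI in Mettl3pKO than in WT, and less Mnx1, Nkx6-1, Pdx1 and Mafa. The largest ratios above 1 were those of Npy (1.77-fold), G6pc2 (1.503-fold), Ins1 (1.33-fold) and Iapp (1.26-fold). Past 1.5-fold there were 2 members higher, G6pc2 and Npy, where 6.5% of all 11417 genes measured were higher, and 1 lower, Mnx1, where 8.86% were lower. In cells of 13000 UMIs or more, Npy alone passed 1.5-fold higher (background 7.11%) and no member passed lower (background 6.84%). The median log2 ratio of the 10 members was 0.24, against -0.07 over all genes.

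The hormone genes made up a large part of the mRNA of these cells. Ins1 stood at 73453 CPM in Mettl3pKO and 55119 CPM in WT, a ratio of 1.33 (1.33 to 1.34). Ins2 stood at 87337 CPM in Mettl3pKO and 71861 CPM in WT, a ratio of 1.22 (1.21 to 1.22). Insulin as the sum was thus 1.27 times higher (1.26 to 1.27) in Mettl3pKO, and among cells of 13000 UMIs or more only 1.10 times (1.09 to 1.10), so the excess was smaller at a depth both tables cover. Iapp, whose peptide is released with insulin, stood at 26143.5 CPM in Mettl3pKO and 20686 CPM in WT, a ratio of 1.26 (1.25 to 1.28) that was 1.21 in the deeper cells. Since insulin took up so much of the total, its ratio per 1000000 UMIs of all other genes was 1.33.

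The pair of insulin genes did not shift by the same factor. Ins2 had 1.19 UMIs for each Ins1 UMI (1.18 to 1.20) in Mettl3pKO beta-like cells and 1.30 (1.30 to 1.31) in WT, a ratio of 0.912 (0.905 to 0.919). In cells of 13000 UMIs or more that ratio was 0.961. Outside the beta lineage, in mesenchyme-like cells with under 1% insulin, Ins2 per Ins1 was 1.41 in Mettl3pKO and 1.64 in WT. The counting intervals of these mesenchyme-like values overlapped, so they do not show a shift outside the beta lineage. These ratios carry the doubt about reads shared by the copies.

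The transcription factors stood lower in Mettl3pKO. Nkx6-1, needed to form and keep mouse beta cells, had 792 CPM in Mettl3pKO and 1058 CPM in WT, a ratio of 0.748 (0.711 to 0.786), and 0.809 (0.765 to 0.856) in the deeper cells. Mafa had 895 CPM in Mettl3pKO and 1120 CPM in WT, a ratio of 0.799 (0.762 to 0.838), and 0.741 (0.703 to 0.781) in the deeper cells. Both ratios therefore stayed below 1 in these cells, whose median depth was 16555 UMIs in Mettl3pKO and 16736 in WT. Pdx1, which in the mouse is needed for the pancreas and later activates Ins1 and Ins2, had 158 CPM in Mettl3pKO and 206 CPM in WT, a ratio of 0.769 (0.686 to 0.860). In the deeper cells the Pdx1 ratio was 0.893 with an interval of 0.785 to 1.02, not separable from equality within counting error. Mnx1, a factor that in mice holds beta cells apart from other islet fates, was the lowest at 38.7 CPM in Mettl3pKO and 62.5 CPM in WT, a ratio of 0.619 (0.491 to 0.773), and 0.759 (0.578 to 0.990) in the deeper cells.

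The glucose-handling genes and Npy stood higher. G6pc2, just past the 1.5-fold threshold, had 707 CPM in Mettl3pKO and 471 CPM in WT, a ratio of 1.503 (1.42 to 1.59), and 1.29 (1.21 to 1.37) in the deeper cells. Slc2a2 had 725 CPM in Mettl3pKO and 636 CPM in WT, a ratio of 1.14 (1.08 to 1.20), and 1.01 (0.949 to 1.07) in the deeper cells, where no difference was detectable. Npy had 1135 CPM in Mettl3pKO and 643 CPM in WT, a ratio of 1.77 (1.68 to 1.85), and 1.52 (1.44 to 1.59) in the deeper cells. Of these 3, Npy stayed farthest from equality above that depth.

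**Figure D1:**
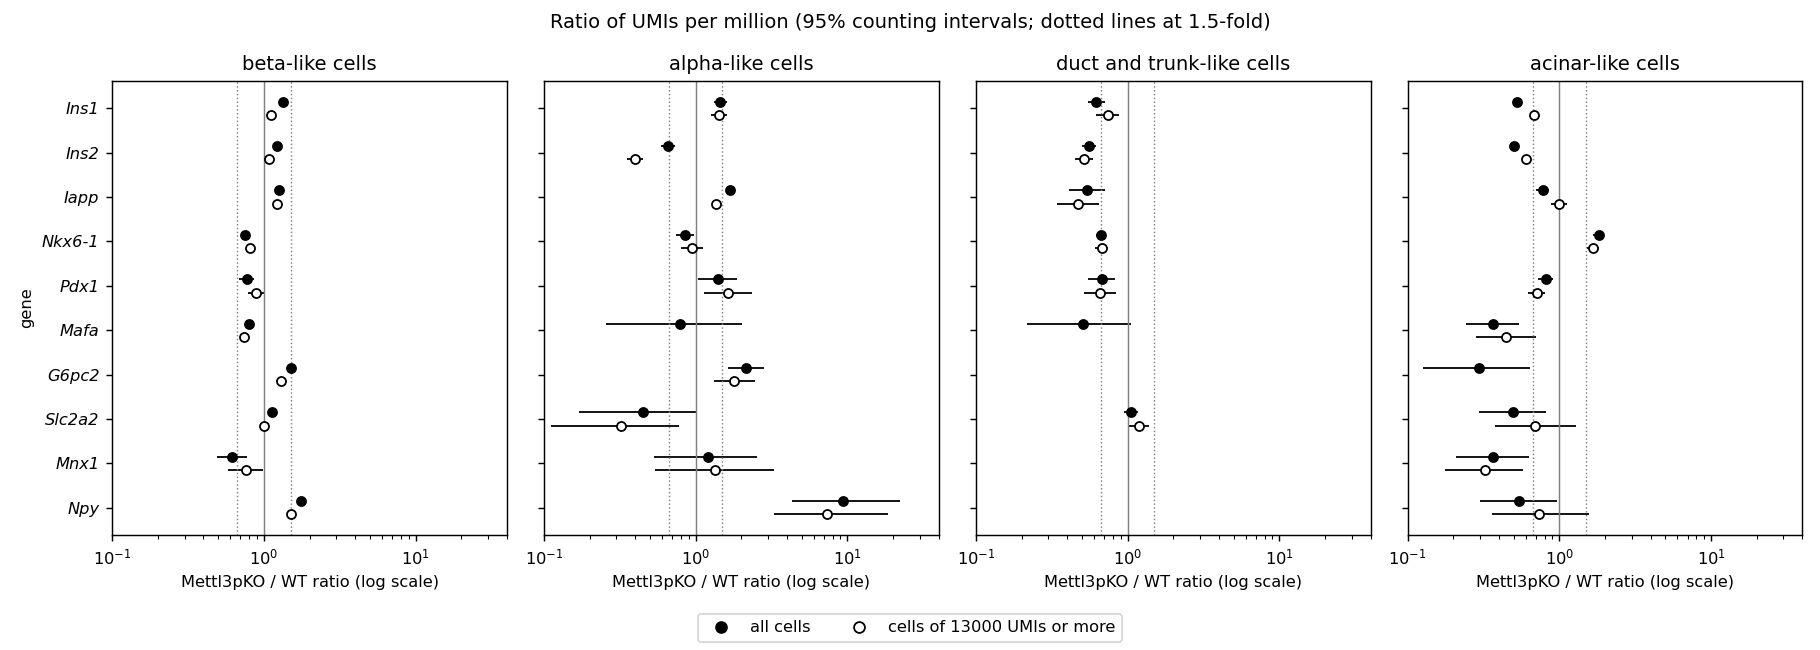
Ratio of Mettl3pKO to WT level (horizontal log axis) for each of the 10 genes in 4 classes, with 95% counting intervals; filled points are all cells, open points cells of 13000 UMIs or more, and dotted lines mark 1.5-fold. In beta-like cells Npy, at 1.77, lies farthest above 1 and Mnx1, at 0.619, farthest below.

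The Npy difference was larger in cycling cells than in the rest. A cell was called cycling with at least 2 UMIs over 9 proliferation genes, which was so for 49 of 156 beta-like cells in Mettl3pKO (31.4%, 24.2 to 39.3) and 42 of 400 in WT (10.5%, 7.67 to 13.9). In cycling beta-like cells Npy had 1871 CPM in Mettl3pKO and 544 CPM in WT, a ratio of 3.44 (3.09 to 3.83). In the cells not cycling it had 718 CPM in Mettl3pKO and 658 CPM in WT, a ratio of 1.09 (1.02 to 1.17). By cluster, Npy had 946 CPM in Mettl3pKO and 633 CPM in WT in the larger beta-like cluster, and 2183 and 821 CPM in the smaller. In cells of 13000 UMIs or more, 47 of 132 were cycling in Mettl3pKO (35.6%, 27.5 to 44.4) and 35 of 224 in WT (15.6%, 11.1 to 21.1). The Npy ratio there was 3.44 (3.08 to 3.85) in cycling cells, and in the rest the direction turned, to 0.914 (0.852 to 0.980), with 798 CPM in Mettl3pKO and 874 CPM in WT. Over all depths the other members moved less between these subsets: G6pc2 was 1.60 times higher in cycling cells and 1.42 in the rest, Mafa 0.705 and 0.879, Nkx6-1 0.741 and 0.808, and insulin 1.21 and 1.23. From 13000 UMIs these pairs were 1.57 and 1.22 for G6pc2, 0.689 and 0.809 for Mafa, 0.777 and 0.870 for Nkx6-1, and 1.13 and 1.07 for insulin. In those deeper cells that were not cycling, the intervals of Pdx1, at 0.973 (0.836 to 1.13), and Mnx1, at 0.820 (0.588 to 1.13), included equality. Beta-like cells that held Y-linked UMIs without Xist made up 67.9% of the class in Mettl3pKO and 47.0% in WT, and among them the Npy ratio was 2.52.

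Markers of other cell types also differed within the beta-like class. Summed alpha markers stood at 4445 CPM in Mettl3pKO and 3476 CPM in WT, with Gcg at 1249 and 716 CPM. Of the 8 alpha markers, 1 was past 1.5-fold higher in Mettl3pKO and 2 past it lower, where 6.5% and 8.86% of all genes were. Delta markers stood at 1385 CPM in Mettl3pKO and 2399 CPM in WT, Fev precursor markers at 285 and 426 CPM, acinar markers at 1658 and 1446 CPM, and mesenchyme markers at 263 and 104 CPM. Their part in the members' ratios was not tested.

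Beta-like cells were not alike in how much insulin they held, and the genotypes differed in that spread. The median beta-like cell gave 16.6% of its UMIs to insulin in Mettl3pKO and 11.3% in WT, over ranges of 0.00805 to 31.2% and 0 to 31.8%. Cells at 10% or more made up 138 of 156 in Mettl3pKO (88.5%, 82.4 to 93.0) and 229 of 400 in WT (57.25%, 52.2 to 62.2). Cells from 1 to 10% made up 14 of 156 in Mettl3pKO (8.97%) and 146 of 400 in WT (36.5%). Insulin-poor WT cells were also shallower: those with under 1% insulin had a median of 9479 UMIs, and those at 20% or more one of 16608. In cells of 13000 UMIs or more the gap was smaller, with 12 of 132 Mettl3pKO cells (9.09%, 4.79 to 15.3) and 46 of 224 WT cells (20.5%, 15.4 to 26.4) from 1 to 10%, and medians of 16.9% and 15.6%.

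**Figure D2:**
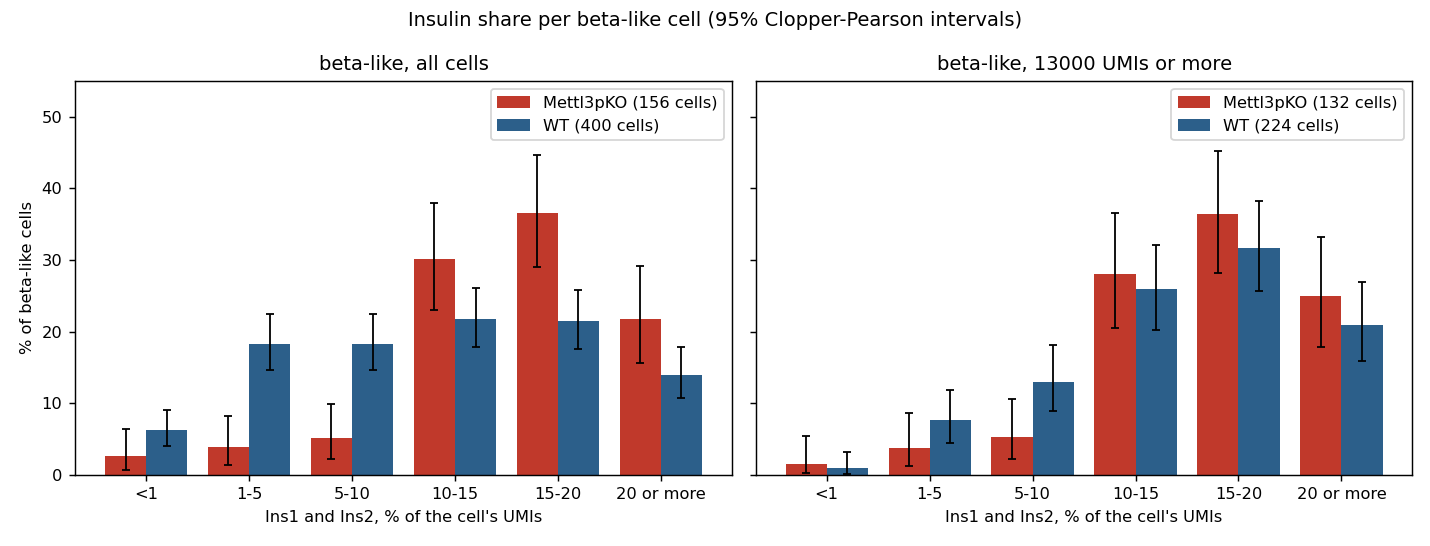
Bars give the percentage of beta-like cells (vertical axis) by the share of a cell's UMIs taken by Ins1 and Ins2 (horizontal axis), Mettl3pKO left of WT, for all cells and for those of 13000 UMIs or more, with 95% Clopper-Pearson intervals. Over all cells, the 1 to 10% range holds 8.97% of Mettl3pKO and 36.5% of WT cells.

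Counted without clusters inside the epithelium, insulin-rich cells, those with at least 1% of UMIs from Ins1 and Ins2, made up 157 of 2775 epithelial cells in Mettl3pKO (5.66%, 4.83 to 6.58) and 383 of 4256 in WT (8.999%, 8.16 to 9.90), a ratio of 0.629 (0.519 to 0.759). Few cells lay near that threshold: 3 in Mettl3pKO and 17 in WT had 0.5 to 1%, and 7 and 21 had 1 to 2%. In cells of 13000 UMIs or more the shares were 5.62% in Mettl3pKO and 13.4% in WT, a ratio of 0.419. Under a stricter cell filter, with 500 genes as the minimum and 10% as the mitochondrial maximum, the direction turned, to 1.04. The median mitochondrial share of acinar-like cells, the largest epithelial class, was 10.7% in Mettl3pKO and 6.23% in WT. Its part in that turn was not tested. Cells at 10% insulin or more made up 4.97% of epithelial cells in Mettl3pKO and 5.38% in WT, and 4.95% and 10.5% among those of 13000 UMIs or more.

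Within WT, the members followed the insulin content in different ways. Levels here are per 1000000 UMIs outside the 10 members, so that insulin does not dilute them, given for WT cells with under 1% insulin and for those with 20% or more. Iapp was higher in the richest cells, at 14079 and 33140. G6pc2 stood at 110 and 1056, and Slc2a2 at 90.0 and 1022. Npy had no UMI in the 25 cells of under 1%, which allows up to 12.3, and stood at 1576 in the richest. Mafa stood at 139 in the lowest cells and peaked at 1686 in cells of 10 to 15%, with 1450 in the richest. The homeodomain factors ran the other way or stayed level: Pdx1 at 352 and 181, Mnx1 at 135 and 59.9 and Nkx6-1 at 1301 and 1152. Fev, the marker of the preceding precursors, stood at 323 and 52.6. The bins of under 10% insulin in Mettl3pKO held 4, 6 and 8 cells, too few for such a description.

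**Figure D3:**
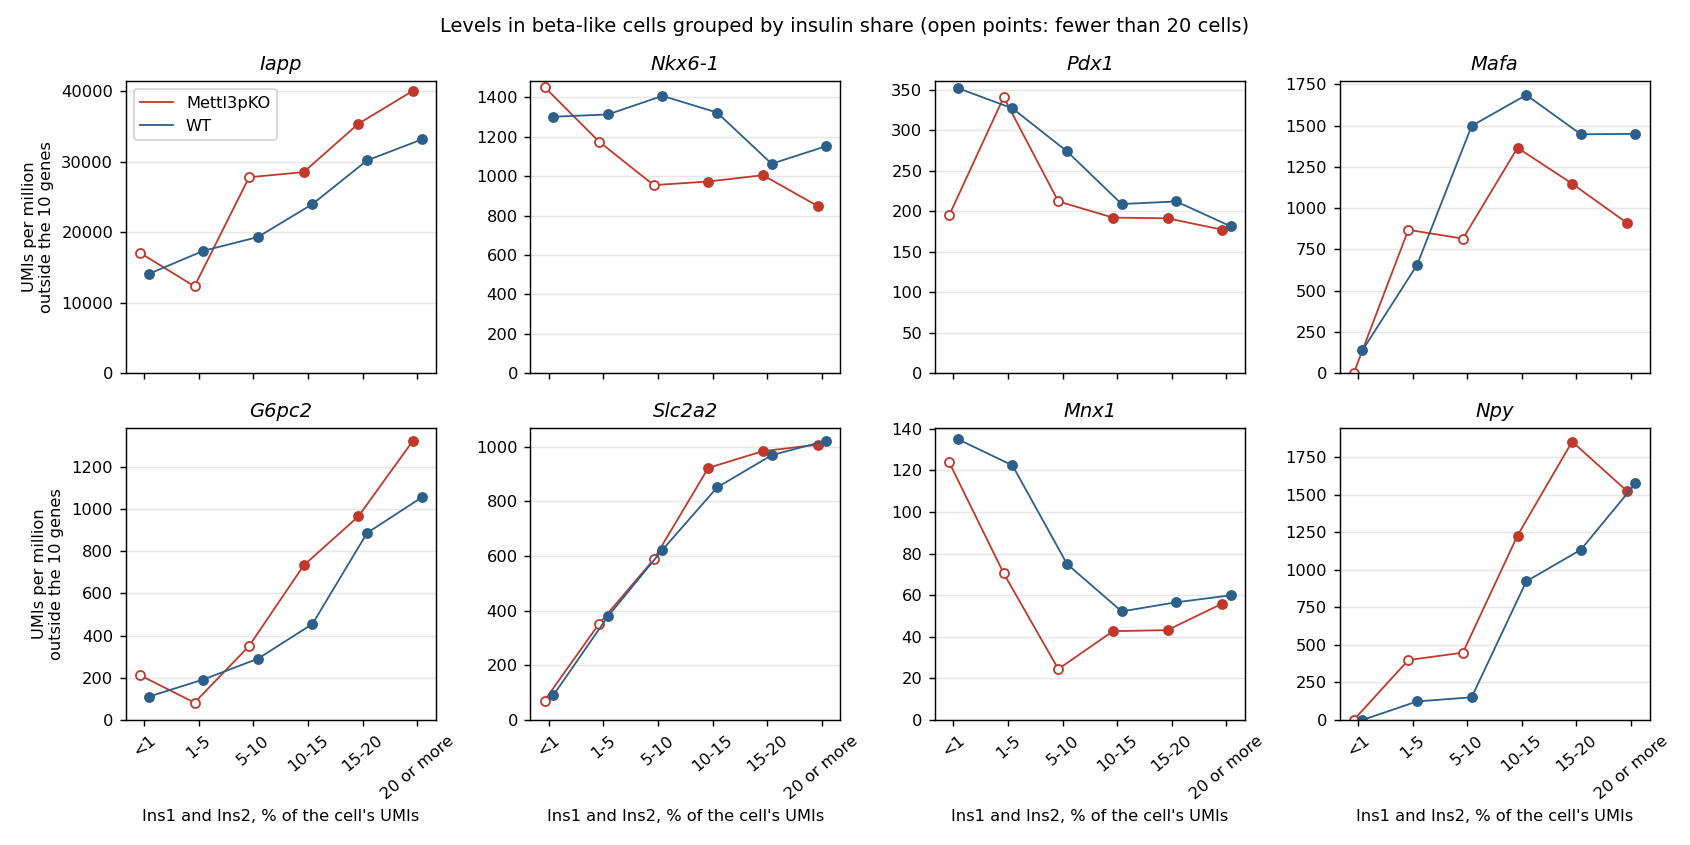
Level of each member other than the insulin genes, per 1000000 UMIs outside the 10 members on a linear vertical axis, in beta-like cells binned by the share of UMIs taken by insulin. In WT, G6pc2 stands at 110 in the lowest bin and 1056 in the highest and Pdx1 at 352 and 181; the first 3 Mettl3pKO bins hold under 20 cells each.

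Since the libraries differed in insulin-poor cells, the members were also compared only in cells of 10% insulin or more (138 Mettl3pKO and 229 WT cells), an alternative added after the data were seen, per 1000000 UMIs outside the 10 members. Iapp stood at 34020 in Mettl3pKO and 28460 in WT, 1.20 times higher. Npy stood at 1557 in Mettl3pKO and 1153 in WT (ratio 1.35, 1.28 to 1.42), and G6pc2 at 966 and 759 (1.27, 1.20 to 1.36). Mafa stood at 1171 in Mettl3pKO and 1540 in WT (0.760, 0.722 to 0.800), and Nkx6-1 at 957 and 1183 (0.809, 0.764 to 0.857). The intervals of Pdx1, at 0.924 (0.808 to 1.05), and Mnx1, at 0.826 (0.629 to 1.08), included equality, and Slc2a2 stood at 1.03. Mafa and Nkx6-1 thus stood lower and Npy, G6pc2 and Iapp higher among these cells too, but Npy and G6pc2 were no longer past 1.5-fold. On the same denominator the 1 to 10% insulin range, with only 14 Mettl3pKO and 146 WT cells, gave 3.11 for Npy, 0.992 for G6pc2, 0.769 for Mafa, 0.767 for Nkx6-1, 0.974 for Slc2a2 and 0.442 for Mnx1.

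To count the members found together in a cell, all cells were first thinned to 7500 UMIs, which left out 5 WT beta-like cells. Mettl3pKO beta-like cells had a UMI of 7.97 ± 1.04 members (SD over 156 cells, range 4 to 10) and WT cells of 7.75 ± 1.30 (395 cells, range 3 to 10), a difference of 0.228. That difference was -0.0831 in cells of 13000 UMIs or more. At least 8 members were found in 109 Mettl3pKO cells (69.9%) and 264 WT cells (66.8%), and all 10 in 8 and 21. In every other class of 30 cells or more the mean lay between 0.945 and 4.39, the highest being WT Fev precursor-like cells.

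**Figure D4:**
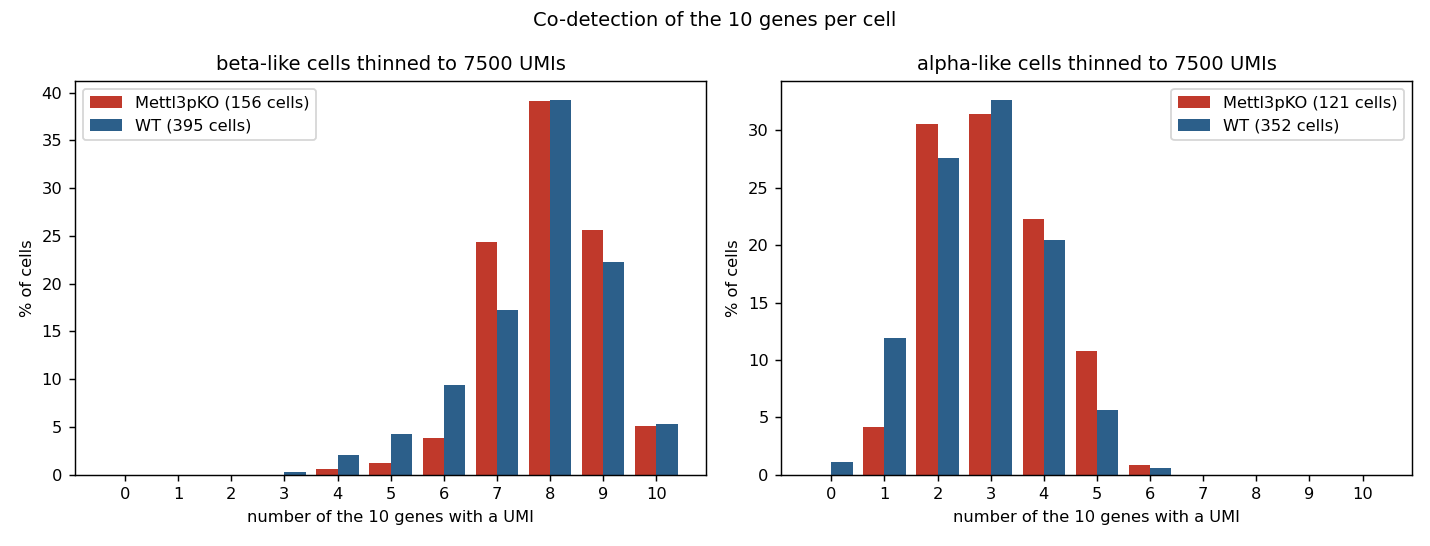
Bars give the percentage of beta-like and of alpha-like cells (vertical axis) by the number of the 10 genes with a UMI after thinning to 7500 UMIs (horizontal axis), Mettl3pKO left of WT. The means are 7.97 in Mettl3pKO and 7.75 in WT in beta-like cells, and 3.07 and 2.79 in alpha-like cells.

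Free RNA sets a floor under such counts, and it was read from mesenchyme-like cells, which should not make these products (median 13522 UMIs in Mettl3pKO and 8899.5 in WT, against 15613.5 and 13558.5 in beta-like cells). After thinning, 30.7% of Mettl3pKO and 37.8% of WT mesenchyme-like cells had an Ins1 UMI, and 42.7% and 55.1% an Ins2 UMI. Both insulin genes together were found in 98.1% of Mettl3pKO and 92.4% of WT beta-like cells, and in 12.3% and 21.9% of mesenchyme-like ones. For the other members the mesenchyme-like shares were at most 11.6%, for Iapp, and at most 4.78% for the rest. For some members the share was higher in other classes that should lack these products. Nkx6-1 was found in 31.8% of 44 Mettl3pKO and 10.1% of 89 WT erythroid-like cells, and Iapp in 9.09% and 17.98%. Slc2a2 was found in 12.5% of 40 Mettl3pKO and 3.03% of 66 WT immune-like cells. The mesenchyme-like floor may thus be too low for these members. Iapp was found in 100% of beta-like cells of both libraries, Nkx6-1 in 94.9% of Mettl3pKO and 99.2% of WT cells, Mafa in 88.5% and 83.5%, and Slc2a2 in 91.7% and 85.1%. G6pc2 was found in 91.0% of Mettl3pKO and 77.5% of WT cells and Npy in 44.2% and 33.2%, whereas Pdx1, in 66.0% and 74.2%, and Mnx1, in 23.7% and 30.6%, were found in fewer Mettl3pKO cells.

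Pairs of members showed how these shares combine per cell. Nkx6-1 and Pdx1 occurred together in 62.2% of Mettl3pKO and 73.9% of WT beta-like cells, and Mafa and G6pc2 in 80.8% and 69.4%. Alone, Pdx1 was found in 66.0% and 74.2% and G6pc2 in 91.0% and 77.5%. The pair shares thus partly restate the single-gene shares. In WT, Npy was found in 38.5% of the 330 cells with a Mafa UMI and 6.15% of the 65 without, and Slc2a2 in 91.5% and 52.3%. In Mettl3pKO only 18 cells had no Mafa UMI, too few for such a split, and Spearman's rho of Mafa with Npy was 0.062 over 156 cells, against 0.173 over 395 cells in WT. These values across thinned cells are descriptions and weak in both libraries. Mnx1 and Npy occurred together in 12.2% of Mettl3pKO and 9.62% of WT cells, near the 10.5% and 10.2% that the product of their shares gives. WT cells without a Mafa UMI had a median insulin share of 2.16%, against 13.3% in those with one. They also held more Fev, at 1.89 UMIs per cell against 0.676.

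Along the WT endocrine lineage the members appeared at different steps. Nkx6-1 stood at 230 CPM in duct and trunk-like, 563 in endocrine progenitor-like, 1280 in Fev precursor-like and 1058 in beta-like cells. Pdx1 had 34.5 CPM in both earlier classes, whose intervals overlap, then 340 and 206, and Mnx1 had 1.15, 4.21, 147 and 62.5 CPM. In CPM the 3 homeodomain factors were thus highest in Fev precursor-like cells, but insulin dilutes the other genes in beta-like cells. With the members left out of the total, WT beta-like Nkx6-1 stood at 1248 (1217 to 1280). That lies within its Fev precursor-like interval of 1207 to 1356 CPM. A peak of Nkx6-1 in Fev precursor-like cells was therefore not separable from equality within counting error. Iapp was already high in Fev precursor-like cells, at 2123 CPM, against 24.4 in endocrine progenitor-like and 20686 in beta-like cells. Mafa, at 30.3 and 14.5 CPM in endocrine progenitor-like and Fev precursor-like cells, and G6pc2, at 0.842 and 24.5 CPM, stood far below their beta-like 1120 and 471 CPM. Npy had no UMI in 100 Fev precursor-like cells, which allows up to 3.34 CPM. Slc2a2 differed from all of these, at 83.9 CPM in duct and trunk-like cells, 43.8 in endocrine progenitor-like, 27.9 in Fev precursor-like and 636 in beta-like cells. WT delta-like cells held 8575 CPM of Iapp, 105 of Pdx1 and 70.8 of Nkx6-1.

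**Figure D5:**
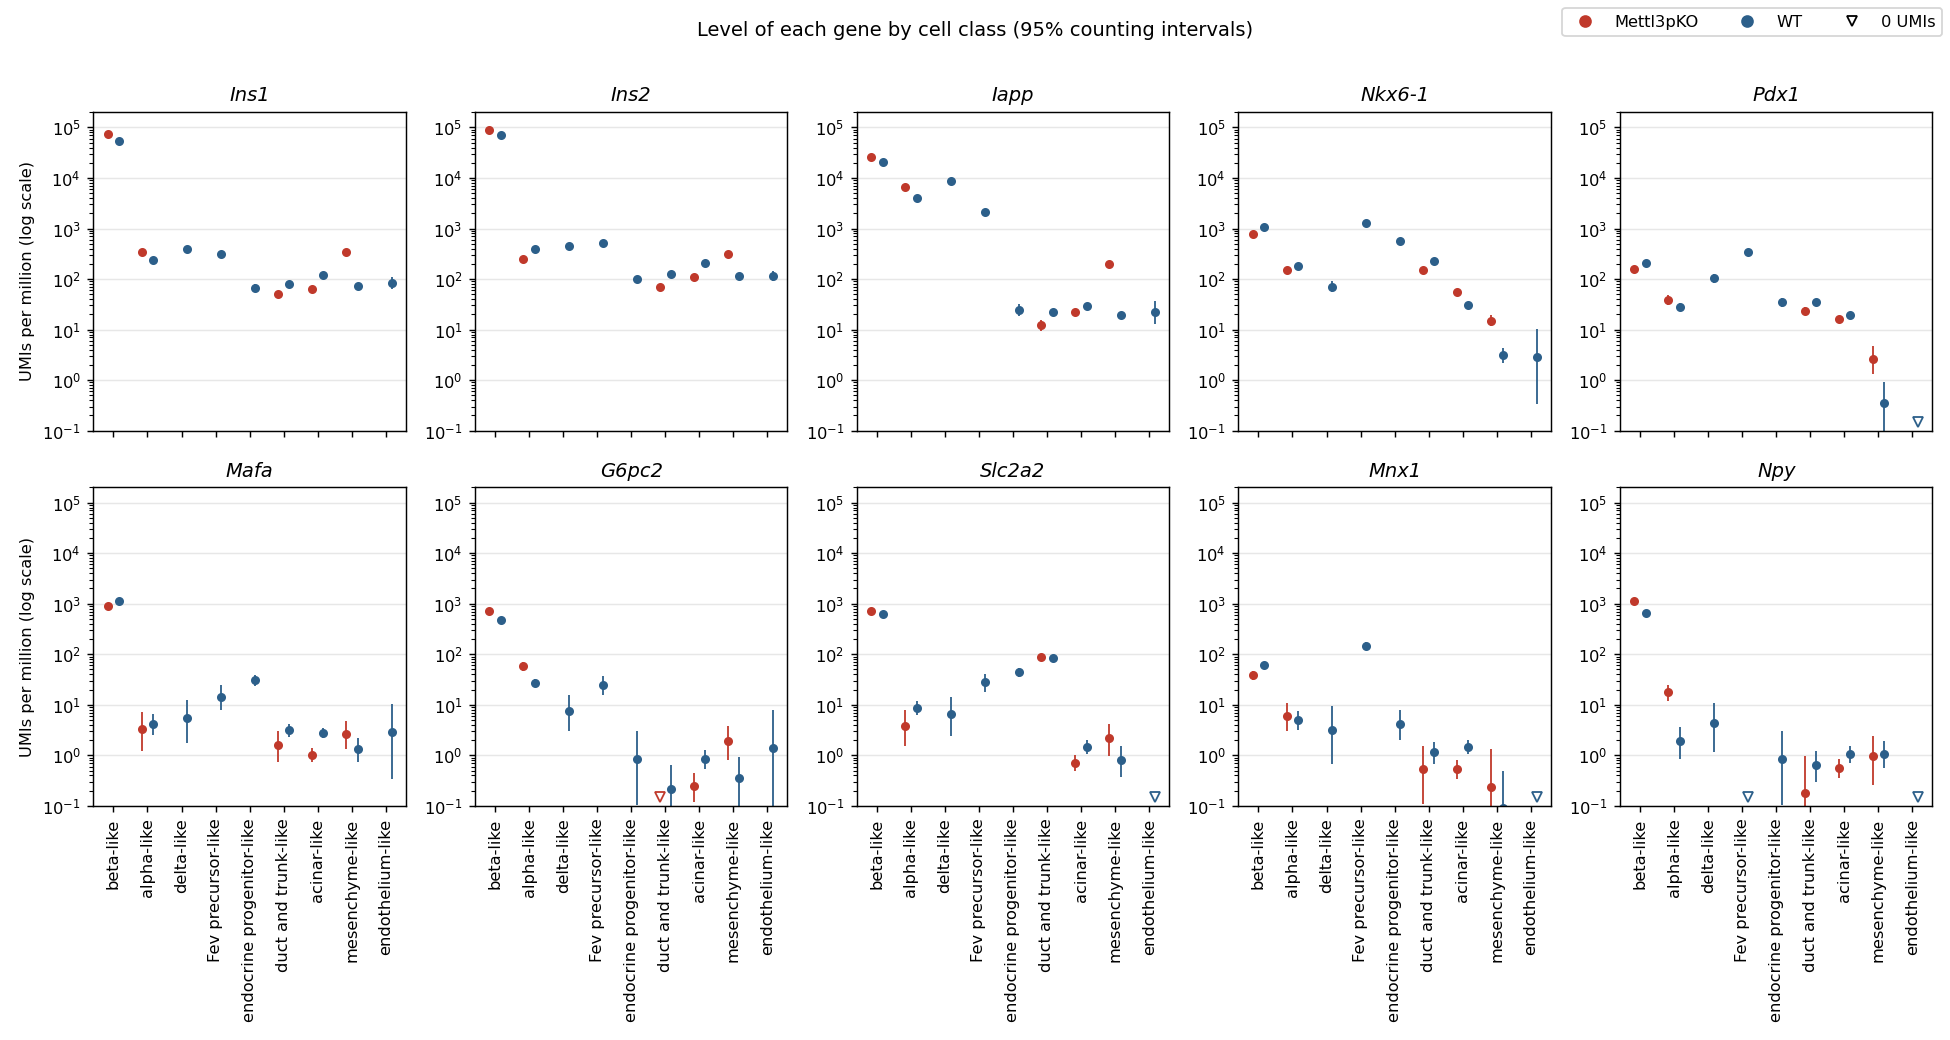
Level of each gene in UMIs per 1000000 (vertical log axis) in the endocrine and other epithelial classes, mesenchyme-like and endothelium-like cells, with 95% counting intervals and a point for each library with at least 30 cells. The points for Nkx6-1, Pdx1 and Mnx1 are highest in WT Fev precursor-like cells, where Nkx6-1 reaches 1280 CPM, and those of the other 7 genes in beta-like cells.

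Alpha-like cells, the glucagon cells, held Iapp at a high level and the other members at a low one in both libraries. Past 1.5-fold, 3 members were higher in Mettl3pKO, where 5.46% of 11652 genes were higher, and 2 lower, where 10.4% were lower. Iapp had 6761 CPM in Mettl3pKO and 4005 CPM in WT, a ratio of 1.69, and G6pc2 57.6 and 26.8 CPM, a ratio of 2.15. In cells of 13000 UMIs or more the Iapp ratio was 1.36 and that of G6pc2 1.8004. Limited to cells with at least 1% Gcg (114 of 121 in Mettl3pKO and 264 of 369 in WT), the ratios were 1.39 for Iapp and 1.75 for G6pc2. The WT alpha-like class also held cells with ghrelin-cell markers, summed at 476 CPM in Mettl3pKO and 3404 CPM in WT. Hepatocyte markers there summed to 163 CPM in Mettl3pKO and 1913 CPM in WT. Their part in the alpha-like ratios beyond the values in Gcg-rich cells was not tested. Npy stood at 17.6 CPM in Mettl3pKO and 1.89 in WT, a ratio of 9.30 (4.34 to 22.1) that rests on 32 UMIs in 6 cells and 9 UMIs in 7 cells.

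The alpha-like members that stood lower were Slc2a2, at 3.84 CPM in Mettl3pKO and 8.60 CPM in WT (0.447), and Ins2. Ins2 had 253 CPM in Mettl3pKO and 387 CPM in WT (0.656, and 0.398 in the deeper cells), while Ins1 had 348 and 239 CPM (1.45). In alpha-like cells of under 1% insulin, Ins2 was 210 CPM in Mettl3pKO and 167 in WT and Ins1 331 and 182, so the direction for Ins2 turned without the insulin-rich cells, 1 in Mettl3pKO and 3 in WT. Nkx6-1 had 152 CPM in Mettl3pKO and 179 in WT (0.850), and Pdx1 38.9 and 27.9 (1.40, 1.03 to 1.88).

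Duct and trunk-like cells, which include the bipotent trunk, held Nkx6-1, Pdx1 and Slc2a2 above the level of mesenchyme-like cells. Of 7 members measured there, none was past 1.5-fold higher in Mettl3pKO (background 12.1% of 12664 genes) and 5 were lower (background 8.9%). Nkx6-1 was just past that fold, with 153 CPM in Mettl3pKO and 230 CPM in WT (0.665, 0.616 to 0.718, and 0.674 in the deeper cells), and Pdx1 just short of it, with 23.3 and 34.5 CPM (0.675). Slc2a2, whose counting intervals overlapped, had 88.8 CPM in Mettl3pKO and 83.9 CPM in WT (1.06), with a UMI in 39.5% and 39.0% of cells. The insulin genes, Iapp and Mafa were the other 4 past the fold, Ins1 at 50.9 and 81.6 CPM and Ins2 at 71.2 and 127.5 CPM. Mesenchyme-like cells of under 1% insulin, a measure of free RNA, held 56.6 CPM of Ins1 in Mettl3pKO and 68.9 CPM in WT, and 79.7 and 113 CPM of Ins2. The part of free RNA in the duct and trunk-like ratios was not tested. The libraries lay in different clusters of this class: the largest cluster held 56 Mettl3pKO and 778 WT cells, the next 239 and 368, and the smallest 62 and 52. Within them, in that order, the Nkx6-1 ratio was 0.864 (0.736 to 1.01), 0.681 (0.617 to 0.751) and 0.574 (0.402 to 0.821), below 1 in all 3.

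In acinar-like cells, the enzyme-secreting cells, Nkx6-1 was higher over the class as a whole and within 1 of its 7 clusters beyond counting error. It had 55.01 CPM in Mettl3pKO and 30.3 CPM in WT, a ratio of 1.81 (1.67 to 1.97), 1.67 in cells of 13000 UMIs or more, and a UMI in 29.8% of thinned Mettl3pKO and 17.0% of thinned WT cells. It was the 1 member past 1.5-fold higher, where 21.5% of 13629 genes were higher, and 7 were lower, where 8.39% of genes were. Acinar-like cells with Y-linked UMIs and no Xist made up 52.0% of the class in Mettl3pKO and 9.29% in WT. Among them the Nkx6-1 ratio was 1.71 (1.36 to 2.20). The libraries filled different acinar-like clusters. The 2 that were mostly Mettl3pKO (722 and 711 Mettl3pKO cells against 115 and 71 WT cells) had Nkx6-1 ratios of 1.003 (0.837 to 1.21) and 0.995 (0.789 to 1.27), and the 3 that were mostly WT (38, 67 and 86 Mettl3pKO cells against 503, 400 and 372 WT cells) had ratios between 1.08 and 1.33 whose intervals included 1. In a cluster led by Rrm2 and Fen1 (287 and 200 cells) the ratio was 2.10 (1.66 to 2.68), and in one led by Gm26917 and Rnase1 (216 and 202 cells) 0.595 (0.452 to 0.780). Nkx6-1 was also higher in classes that should lack it, at 15.1 CPM in Mettl3pKO and 3.14 in WT in mesenchyme-like cells, and 76.5 and 27.6 in erythroid-like cells. The part of free RNA in its acinar-like ratio was not tested. Among the 7 lower members, Ins1 stood at 62.9 CPM in Mettl3pKO and 119 CPM in WT and Ins2 at 107 and 213 CPM, and the other 5, Mafa, G6pc2, Slc2a2, Mnx1 and Npy, stood below 3 CPM in both libraries. Pdx1 was 16.0 and 19.7 CPM (0.811).

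Genes that work with the members in beta cells were read from fixed lists, chosen with earlier results of these data known, in beta-like cells at the same 1.5-fold (background 6.5% higher and 8.86% lower). Of 16 other islet transcription factors, 0 stood higher in Mettl3pKO and 2 lower, with a median log2 ratio of -0.31. The 2 were Pax4, a factor of early beta and delta cells (2.30 CPM in Mettl3pKO and 12.4 CPM in WT, 0.185), and St18 (80.0 and 120 CPM, 0.664). Mlxipl, the glucose-responsive factor ChREBP (0.673), and Myt1 (0.703) were nearest the threshold. Of 21 genes of insulin processing, granules and secretion, none passed in either direction, with a median log2 ratio of -0.01. The granule protein gene Chga had 5555 CPM in Mettl3pKO and 4242 CPM in WT (1.31) and Scg5, a partner of the prohormone convertase PC2, 247 and 181 CPM (1.36), while Kcnj11, a subunit of the ATP-sensitive potassium channel, had 122 and 162 CPM (0.757) and the fusion protein gene Snap25 79.2 and 107 CPM (0.743).

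Of 10 beta cell maturation genes, 2 stood higher and 0 lower, with a median log2 ratio of 0.06. They were Ucn3, urocortin 3, a late marker of mouse beta cells (76.9 CPM in Mettl3pKO and 47.3 CPM in WT, 1.63), and Prlr, the prolactin receptor (58.2 and 31.6 CPM, 1.84). Gipr, an incretin receptor, stood at 74.3 and 104 CPM (0.716) and Tmem215 at 158 and 121 CPM (1.31). Of 6 other islet hormone genes 1 stood higher and 2 lower: Gcg at 1.75, Sst at 0.457 and Ghrl, ghrelin, at 0.0668, with Ppy at 1.37. The share of thinned beta-like cells with a Gcg UMI went the other way, as given above. All 9 proliferation genes stood higher, with a median log2 ratio of 2.04, led by Cenpf (6.65-fold), Aurkb (4.62-fold), Cdk1 (4.43-fold) and Birc5 (4.196-fold). The same 9 genes define the cycling cells above.

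The genes most like each member across classes were found by the Pearson correlation of log2(CPM + 10) over 20 class and library profiles, among 4646 genes outside the 10, as a description with no test. Profiles of 1 library share its depth and free RNA. Prss53 was nearest to Ins1 (0.944), Ins2 (0.963), Mafa (0.981) and Slc2a2 (0.824), the lowest leading value. Arhgap36 was nearest to G6pc2 (0.986, with Ppp1r1a at 0.986), and Kcnk9 to Npy (0.942). Iapp was most like genes of all endocrine cells, namely Pcsk2, the convertase PC2 (0.976), Tnr (0.965) and Scg3 (0.960). The homeodomain factors differed from these: Nkx6-1 was most like Nkx2-2 (0.924), Mnx1 most like Acvr1c (0.947), and Pdx1 most like Gm27033 (0.966) and Mlxipl (0.955). Among the members, Ins1 and Ins2 were the most alike (0.994), and Nkx6-1 was close to Pdx1 (0.903), as was Mnx1 (0.867).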

How the data were processed

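Both deposited tables hold unscaled UMI counts, as whole numbers, which the BD Rhapsody pipeline 1.8 made, per the file headers. The submitters' processing notes name mm10 and Seurat without saying what Seurat did. The last, incomplete line of each table was dropped.

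The cell filter was a minimum of 200 genes and a maximum of 25% mitochondrial UMIs. Scrublet's automatic threshold marked 1 Mettl3pKO and 336 WT cells, so it did not work on Mettl3pKO. Instead the cells above the 95th percentile of the score in each library were removed, 148 in Mettl3pKO and 306 in WT. Scanpy 1.11.5 gave 2000 variable genes without the 10 members, 30 principal components, 15 neighbours and Leiden clusters at resolution 1.0. Clusters took the better-scoring of their top 2 marker classes that no other class outnumbered among their 10 leading genes, and stayed unnamed with low scores, too few markers or high doublet scores. This rule was set after values were seen, and classes are called X-like. The alpha-like cluster scored highest for hepatocyte and next for alpha markers, with 2 and 5 of them among its leading genes.

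Levels are UMIs summed per library and class, per 1000000 UMIs. Ratios have exact conditional binomial intervals, levels exact Poisson and shares exact Clopper-Pearson intervals (scipy 1.17.1). A gene counted as measured with 20 UMIs over both libraries, a class was compared from 30 cells in each library, and a count of 0 allows 3 counts. The code was tested on simulated data. Named were the 10 members and Mettl3, the 4 genes of each list farthest from 1, and the 3 genes most like each member. Members and lists were chosen with earlier results of these data known. Alternatives were other cell filters, doublet rules, clusterings, depths, sexes of cells, denominators and thinning, and, added after the data were seen, other insulin thresholds, cells of 10% insulin or more, cells not cycling (all and from 13000 UMIs), single clusters, classes without cells of 1% insulin and alpha-like cells of 1% Gcg.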

Additional observations from a re-analysis of the deposited data

Results flagged for a closer look

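Several members stood on opposite sides of 1 in beta-like cells and in another class, as Mettl3pKO to WT ratios of summed levels. The differences between classes were not tested, since each genotype had 1 library. Ins1, at 1.33 in beta-like cells, stood at 0.624 in duct and trunk-like and 0.528 in acinar-like cells. Ins2, at 1.22 in beta-like cells, stood at 0.656 in alpha-like, 0.558 in duct and trunk-like and 0.505 in acinar-like cells. Iapp, at 1.26 in beta-like cells, stood at 0.543 in duct and trunk-like and 0.776 in acinar-like cells. In acinar-like cells of 13000 UMIs or more the Iapp ratio was 0.992 (0.882 to 1.12). Within 7 acinar-like clusters it ran between 0.370 and 2.40. Mesenchyme-like cells of under 1% insulin, which should make no insulin, held 56.6 CPM of Ins1 in Mettl3pKO and 68.9 CPM in WT, and 79.7 and 113 CPM of Ins2. Acinar-like cells of under 1% insulin held 58.8 and 103 CPM of Ins1 and 91.7 and 178 CPM of Ins2. In WT the acinar-like levels stood above the mesenchyme-like ones. So did the share of thinned WT cells with a Gcg UMI, at 76.1% in acinar-like and 53.1% in mesenchyme-like cells. In Mettl3pKO that Gcg share was 59.0% in acinar-like and 53.9% in mesenchyme-like cells. The share of free RNA in these ratios was not tested.

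Nkx6-1, at 0.748 in beta-like cells, stood at 1.81 in acinar-like cells, where the ratio within 7 clusters ran between 0.595 and 2.10, and Pdx1, at 0.769 in beta-like cells, stood at 1.40 in alpha-like cells. G6pc2 stood at 1.503 in beta-like and 0.295 in acinar-like cells, Slc2a2 at 1.14 and 0.492, and Npy at 1.77 and 0.538. Acinar-like G6pc2, Slc2a2 and Npy were all below 3 CPM in both libraries. In acinar-like cells of 13000 UMIs or more, the intervals of Slc2a2, at 0.690 (0.375 to 1.29), and Npy, at 0.739 (0.358 to 1.57), included 1.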

How the results depend on the processing

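In beta-like cells 9 of the 10 members stayed on their side of 1 under all 14 alternatives, and Npy turned to 0.914 in cells from 13000 UMIs that were not cycling. Over 451 alternative member values in 4 classes, 303 stayed within the counting interval, 135 moved outside it and 13 turned direction from an interval that excluded 1; causes were not tested. The insulin ratio in beta-like cells, 1.27, was 1.24 with a stricter filter, 1.23 at Scrublet's own threshold, 1.26 without doublet removal, 1.44 at resolution 2.0, 1.19 with the members kept in clustering, 1.23 with libraries clustered alone, 1.28 with classes from each cell's markers, 1.10 from 13000 UMIs, 1.23 in cells with a Y-linked UMI and no Xist, 1.33 without members in the total, 1.37 as a mean over cells, 1.04 from 10% insulin and 1.23 in cells not cycling. Xist cells alone gave no value there (25 Mettl3pKO cells, under 30).

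The 1 member past 1.5-fold lower became 0 from 13000 UMIs, at 2-fold and from 10% insulin. The 2 members higher became 3 at resolution 2.0, 1 with a stricter or no filter, Scrublet's threshold, members kept, libraries alone, 13000 UMIs or Y-linked cells, and 0 at 2-fold, from 10% insulin or in cells not cycling. The insulin-rich ratio of 0.629 turned to 1.04 with the stricter filter and was 0.770 with libraries alone, 0.419 from 13000 UMIs, 0.431 in Y-linked and 0.784 in Xist cells and 0.924 with insulin-rich set at 10%. The Ins2 to Ins1 ratio of 0.912 was 0.925, 0.897 and 0.920 with the stricter filter, Scrublet's threshold and no doublet removal, 0.961 from 13000 UMIs, 0.974 from 10% insulin and 0.959 in cells not cycling. The difference of 0.228 members per cell turned to -0.0831 from 13000 UMIs and -0.107 from 10% insulin, and was 0.731 at resolution 2.0, 0.0208 with members kept, 0.143 with libraries alone, 0.0140 thinned to 10000 UMIs and 0.343 unthinned.

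Besides Npy, ratios of single members that turned were Ins1 in alpha-like cells (0.796, Scrublet's threshold), Ins2 in alpha-like cells (1.92 with members kept, 1.86 in Y-linked cells, 1.25 without cells of 1% insulin), Iapp in duct and trunk-like cells (1.30, each cell's markers) and in acinar-like cells Iapp (1.06 stricter filter, 1.04 no doublet removal), Slc2a2 (1.31 stricter filter, 1.00 no doublet removal, 1.49 Xist cells) and Npy (1.27 Scrublet's threshold, 1.75 no doublet removal). Another 5 values crossed 1 where the interval already included it: Mnx1 in alpha-like cells (0.695 stricter filter, 0.929 each cell's markers) and Slc2a2 in duct and trunk-like cells (0.903 no filter, 0.897 members kept, 0.963 libraries alone). No paired analysis was possible because each genotype had 1 library and the labels give no replicate numbers.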

Other observations

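Cells rich in more than 1 hormone were few. Among epithelial cells, 4 in Mettl3pKO and 5 in WT gave at least 1% of their UMIs to insulin and at least 1% to Gcg, and 1 and 3 did so for insulin and Sst. Insulin-rich cells outside the endocrine classes included 2 acinar-like cells in Mettl3pKO and 3 in WT. In Mettl3pKO, 1 mesenchyme-like cell gave 8.94% and 1 mesothelium-like cell 9.81% of its UMIs to insulin, and the mesenchyme-like Ins1 level of 350 CPM in Mettl3pKO and 73.3 CPM in WT became 56.6 and 68.9 CPM without cells of at least 1%. Cells removed for a high doublet score included 11 insulin-rich cells in Mettl3pKO and 35 in WT, none of which also gave 1% of their UMIs to Gcg.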
